A study of Homo sapiens with 16 samples.

Results

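The effect of SLC-0111 on the transcriptome of HUH6 cells was compared between hypoxia and normoxia. For each gene, the log2 fold change of SLC-0111 over DMSO in normoxia was subtracted from that in hypoxia, and this difference was tested in 18385 of the 58735 genes in the count table with all 16 of the 16 libraries. A positive difference means that the fold change was higher in hypoxia, and a negative difference that it was lower there. HUH6 is an established line from a human hepatoblastoma, a liver tumour of early childhood. One arm received 100 µM SLC-0111 (also called U-104) in hypoxia at an O2 partial pressure of 1%, and its control received DMSO, the solvent, in the same hypoxia. The other arm received 100 µM SLC-0111 in normoxia, and its control received DMSO in normoxia. All groups were cultured with their treatment for 48 h in the same serum-containing medium, and each had 4 libraries. The labels describe the replicates as technical and give 1 line, so the p-values measure only the spread between these libraries, which may be technical, and not that between cultures or tumours.

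Carbonic anhydrases turn carbon dioxide and water into bicarbonate and protons. The isoforms IX and XII sit at the cell surface with their active sites outside, and they take part in the control of pH around tumour cells. SLC-0111 is a ureido-substituted benzenesulfonamide that inhibits both, and it is named as such an inhibitor in the labels. In low oxygen the hypoxia-inducible factors (HIF) are no longer marked for breakdown by prolyl hydroxylation, and they raise genes of glycolysis, of matrix maturation and of pH control, the isoform IX gene CA9 among them.

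The libraries held 3.30 to 49.25 M counts (M is 1000000), with hypoxia DMSO replicate 3 the shallowest and 18.28 M in the second shallowest. Levels below are CPM, counts per M of the library size after TMM scaling. On principal components of all libraries, the first component (47.88% of the variance) separated hypoxia from normoxia and the second (18.64%) set hypoxia DMSO replicate 3 apart. A fit that weights libraries by their spread gave the lowest weights to hypoxia DMSO replicate 1 (0.21), normoxia SLC-0111 replicate 4 (0.34) and hypoxia SLC-0111 replicate 4 (0.41). The summed level of 11 liver and hepatoblastoma markers was 12420 to 15270 CPM over all libraries, whereas DLK1 among them had 8 counts in all. Most of the level of the other marker lists came from 1 or 2 genes. PDGFRB and RGS5 led the 10 fibroblast markers, of which DCN, LUM and COL3A1 averaged at most 0.058 CPM in any group, and ACTA2 averaged higher with SLC-0111 than with DMSO at both oxygen levels (12.96 and 11.1 CPM in hypoxia, 15.6 and 12.8 CPM in normoxia). Summed fibroblast markers were 78.4 to 85.3 CPM in hypoxia SLC-0111 and 104.9 to 119.1 CPM in hypoxia DMSO libraries, and 45.3 to 50.03 CPM in normoxia SLC-0111 and 59.1 to 62.3 CPM in normoxia DMSO libraries. The 9 immune markers, led by CSF1R, with the pan-leukocyte PTPRC averaging at most 0.036 CPM in any group, summed to 19.4 to 29.2 CPM in hypoxia SLC-0111 and 13.9 to 25.98 CPM in hypoxia DMSO, and to 6.22 to 7.54 CPM in normoxia SLC-0111 and 4.56 to 5.16 CPM in normoxia DMSO libraries, and the 8 endothelial markers, mostly PECAM1, to 51.1 to 64.0 CPM over all groups. Red cell markers summed to at most 0.29 CPM. In bulk RNA, fewer cells of a type and less RNA per cell cannot be told apart.

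In hypoxia SLC-0111 lowered CA9 and left CA12 without a call, and the difference between oxygen levels could be measured for CA12 but not for CA9. CA9 (chr9:35673856-35681159, plus strand; this and all gene positions are GENCODE release 29 on GRCh38) had 26.5, 30.0, 26.8 and 22.9 CPM in the hypoxia SLC-0111 libraries and 45.1, 61.9, 59.0 and 59.0 CPM in the hypoxia DMSO libraries, without overlap. In normoxia it had 5 counts in all with SLC-0111 and 7 with DMSO, over 4 libraries each. Its fold change in normoxia, and hence the difference, was not measurable at that depth, and the fall in hypoxia (log2 -1.08, adjusted p 2.10e-07 by edgeR's quasi-likelihood test, as for every adjusted p below) is the only CA9 contrast given.

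CA12 encodes the isoform XII (chr15:63321378-63382161, minus strand). It had 6.76, 6.35, 5.48 and 5.54 CPM in the hypoxia SLC-0111 libraries and 6.06, 6.78, 5.36 and 5.68 CPM in the hypoxia DMSO libraries. In normoxia it had 5.28, 4.53, 5.30 and 5.06 CPM with SLC-0111 and 2.17, 2.53, 3.08 and 2.84 CPM with DMSO. The libraries overlapped in hypoxia, while every SLC-0111 library lay above every DMSO library in normoxia. The log2 effect was -0.04 in hypoxia (adjusted p 0.882) and 0.91 in normoxia (adjusted p 6.11e-06), and the difference was -0.95 ± 0.17 (SE, adjusted p 0.00127).

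The sequences before the starts of both target genes are shown with those of TNFSF10 and EPB41L3, the genes with the largest called differences in either direction among those named below whose effects were called with opposite signs. Each is the 250 bases before the RefSeq start on the strand of the gene (GRCh38.p14), 5′ to 3′, and capitals mark ACGTG or its reverse complement CACGT, the core of the HIF response element.
CA9: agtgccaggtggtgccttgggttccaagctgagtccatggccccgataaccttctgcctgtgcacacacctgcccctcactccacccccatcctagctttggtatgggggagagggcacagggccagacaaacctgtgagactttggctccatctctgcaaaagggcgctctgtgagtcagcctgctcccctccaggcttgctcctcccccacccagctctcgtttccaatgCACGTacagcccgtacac
CA12: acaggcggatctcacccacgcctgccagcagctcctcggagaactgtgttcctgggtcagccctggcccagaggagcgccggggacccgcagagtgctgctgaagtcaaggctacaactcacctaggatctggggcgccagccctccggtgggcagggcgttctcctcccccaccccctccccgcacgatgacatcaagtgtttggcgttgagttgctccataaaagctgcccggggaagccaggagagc
TNFSF10: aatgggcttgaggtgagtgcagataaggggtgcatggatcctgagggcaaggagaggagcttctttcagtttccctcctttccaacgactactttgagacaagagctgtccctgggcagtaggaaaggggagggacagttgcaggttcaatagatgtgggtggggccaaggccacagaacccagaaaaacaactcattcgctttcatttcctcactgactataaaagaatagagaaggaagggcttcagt
EPB41L3: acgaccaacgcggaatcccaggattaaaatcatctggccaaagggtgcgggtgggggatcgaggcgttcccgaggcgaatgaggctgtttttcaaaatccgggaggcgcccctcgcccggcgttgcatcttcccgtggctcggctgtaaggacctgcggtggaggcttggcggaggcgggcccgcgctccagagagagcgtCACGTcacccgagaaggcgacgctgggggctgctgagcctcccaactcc
These lie at chr9:35673678-35673927 (plus strand), chr15:63381847-63382096, chr3:172523431-172523680 and chr18:5628992-5629241 (minus strand). The RefSeq starts used here are not the ends of the GENCODE gene positions. By those positions the windows of CA12 and EPB41L3 lie inside the gene, and those of CA9 and TNFSF10 overlap it. The core was present 1 time each before CA9 and EPB41L3 and was not in the windows of CA12 and TNFSF10. In windows of 300 bases (250 before and 50 after the start), the core stood on either strand in 25.8% of the 10929 protein-coding genes tested that had a window. The share was 28.2% of 426 such genes called higher and 26.8% of 399 called lower for the difference. Windows were at hand for 80.5% of the protein-coding genes tested, 82.1% of those called higher and 78.7% of those called lower. The genes without a window leave each of these shares void as a check. The core of the CEBP-ATF response element, TGATGNAA, stood in 1.79% of the windows of all protein-coding genes tested, and in 1.17% and 2.51% of those called higher and lower. These matches describe letters and not binding.

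In all, 1102 genes were called for the difference at an adjusted p under 0.05, which is 5.99% of those tested. The difference was higher in hypoxia in 527 genes (2.87%) and lower in 575 (3.13%), and 1026 of the 1102 were protein coding. Changes were mostly moderate, with 24 genes called higher and 89 called lower at a difference of at least 2-fold. The median absolute log2 difference was 0.36 in genes called higher and 0.51 in genes called lower. Genes called higher were the more abundant, with a median level of 54.7 CPM in normoxia DMSO, against 17.9 CPM in genes called lower and 9.90 CPM over all tested genes. Without hypoxia DMSO replicates 1 and 3 the count was 2953 (1716 higher and 1237 lower), without hypoxia DMSO replicate 1 alone it was 2040, and without normoxia DMSO replicate 2 it was 691.

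The single effects behind these differences had like spreads over all tested genes. The SD of the log2 effect was 0.33 in hypoxia and 0.35 in normoxia, and the medians were -0.01 and 0.02. SLC-0111 raised 1681 genes (9.14%) and lowered 1307 (7.11%) in hypoxia, and raised 2271 (12.4%) and lowered 2067 (11.2%) in normoxia. The effects in hypoxia and normoxia come from separate libraries. Across the 18385 genes, which are not independent replicates, their Pearson's r was 0.31 and Spearman's rho 0.32, and across the 9733 genes with at least 10 CPM in the highest group r was 0.52. The scatter of both effects shows the called genes on either side of the line of equal effects.

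**Figure D1:**
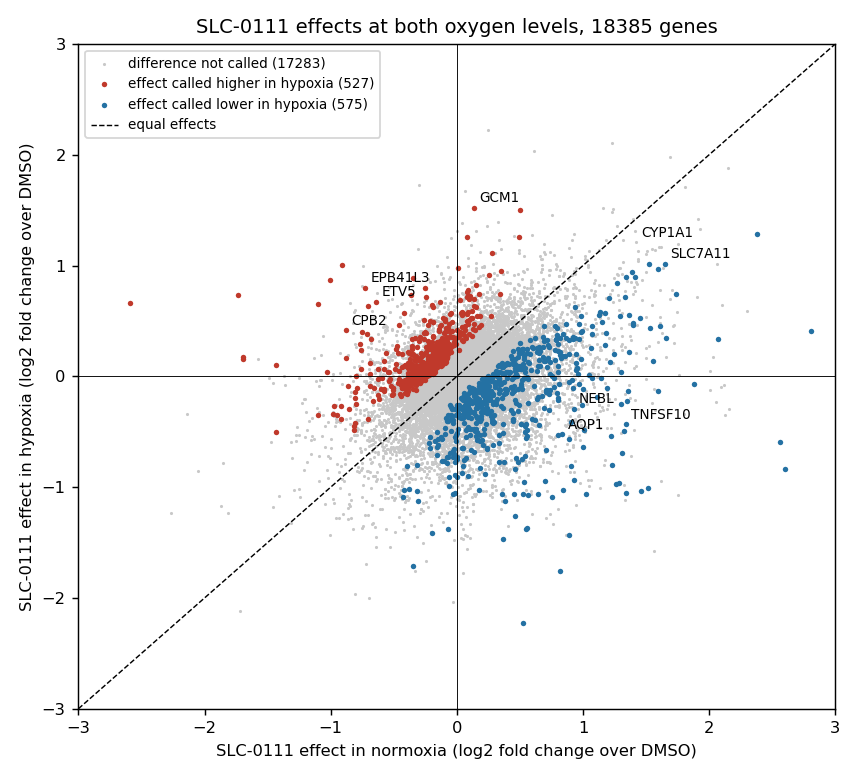
Log2 fold change of SLC-0111 over DMSO in hypoxia (vertical axis) against that in normoxia (horizontal axis), 1 point per tested gene. Red points are the 527 genes whose effect was called higher in hypoxia, blue points the 575 called lower, grey points were not called, the dashed line marks equal effects, and 4 genes lie outside the axes.

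Sorting the 1102 genes by their single contrasts gave 6 kinds of difference. The most frequent was an effect called in normoxia and not in hypoxia, with 519 genes (281 of them with a higher and 238 with a lower difference). A further 346 genes were called in hypoxia and not in normoxia (155 higher, 191 lower). In 83 genes, 7.53% of the 1102, the effects were called with opposite signs: 39 rose in hypoxia and fell in normoxia, and 44 fell in hypoxia and rose in normoxia. Effects of the same sign were larger in normoxia in 89 genes and larger in hypoxia in 23. The remaining 42 were called in neither contrast. The opposite-sign count was 232 without hypoxia DMSO replicates 1 and 3 and 43 without normoxia DMSO replicate 1. These classes share their libraries with the difference and describe it.

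**Figure D2:**
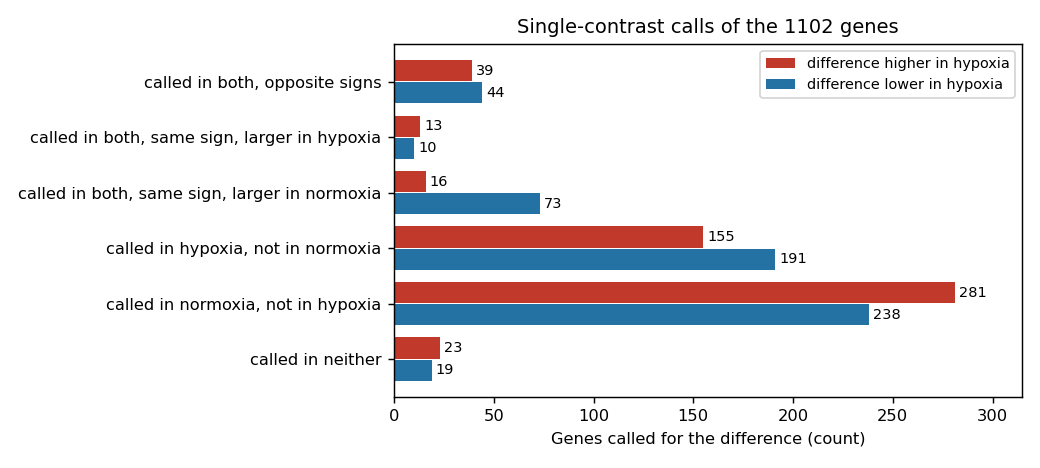
Number of genes called for the difference (horizontal axis) in each class of single-contrast calls (rows), red for a higher and blue for a lower effect in hypoxia. Genes called in normoxia and not in hypoxia are the largest class, with 281 and 238 genes.

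The differences compare fold changes that can start from unequal DMSO levels, as in TNFSF10 below. On the CPM scale, the change by SLC-0111 in hypoxia minus that in normoxia had the sign of the log2 difference in all 527 genes called higher, and in 559 of the 575 called lower. In the other 16 genes the CPM difference had the opposite sign.

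TNFSF10, which encodes the death receptor ligand TRAIL (chr3:172505508-172523507, minus strand), had the largest negative difference among called protein-coding genes with at least 5 CPM in 1 group. It had 54.1, 66.2, 55.4 and 60.3 CPM in the hypoxia SLC-0111 libraries and 69.7, 92.9, 72.7 and 80.5 CPM in the hypoxia DMSO libraries. Its normoxia levels were 6.02, 5.93, 6.49 and 6.21 CPM with SLC-0111 and 2.94, 2.53, 2.21 and 2.20 CPM with DMSO. All SLC-0111 libraries lay below all DMSO libraries in hypoxia and above them in normoxia. The log2 effect was -0.43 in hypoxia and 1.34 in normoxia, with a difference of -1.77 ± 0.15 (adjusted p 2.53e-07).

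AQP1, a water channel that also passes gases (chr7:30911694-30925516, plus strand), had the same pattern. Its levels were 74.5, 83.8, 78.3 and 80.5 CPM in hypoxia SLC-0111 and 106.7, 115.1, 128.0 and 108.9 CPM in hypoxia DMSO libraries. In normoxia they were 10.8, 10.7, 13.8 and 11.6 CPM with SLC-0111 and 6.99, 6.75, 7.76 and 5.20 CPM with DMSO. Again no library overlapped, below DMSO in hypoxia and above it in normoxia, and the difference was -1.35 ± 0.13 (adjusted p 1.59e-06). For NEBL, an actin-binding protein of the nebulin family (chr10:20779973-21174187, minus strand), the levels were 99.2, 107.5, 109.0 and 105.9 CPM in hypoxia SLC-0111 and 128.2, 132.0, 125.7 and 129.7 CPM in hypoxia DMSO libraries. With 44.6, 46.3, 54.6 and 43.7 CPM in normoxia SLC-0111 and 25.7, 26.6, 25.3 and 22.3 CPM in normoxia DMSO libraries, NEBL had effects of -0.29 in hypoxia and 0.93 in normoxia. Its difference, -1.22 ± 0.09, had the lowest adjusted p of the genes named here (3.28e-08).

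In the other direction, EPB41L3, a protein that links membrane and cytoskeleton (chr18:5392381-5630700, minus strand), had the largest positive difference under the same rule. It had 3.36, 3.401, 3.21 and 3.10 CPM in the hypoxia SLC-0111 libraries and 2.14, 1.501, 0.89 and 2.28 CPM in the hypoxia DMSO libraries. The normoxia libraries held 7.67, 5.75, 4.72 and 6.17 CPM with SLC-0111 and 10.6, 10.5, 9.11 and 9.66 CPM with DMSO. SLC-0111 libraries lay above DMSO in hypoxia (log2 0.80) and below it in normoxia (-0.73), each without overlap. The difference was 1.53 ± 0.21 (adjusted p 0.000129).

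CPB2, a liver-secreted carboxypeptidase that slows clot breakdown (chr13:46053195-46105033, minus strand), had 22.7, 22.9, 23.3 and 22.2 CPM in hypoxia SLC-0111 and 18.6, 14.7, 15.8 and 18.6 CPM in hypoxia DMSO libraries. Its normoxia levels were 25.2, 22.3, 15.9 and 20.99 CPM with SLC-0111 and 35.7, 40.6, 38.3 and 39.2 CPM with DMSO. The libraries of both arms were separate at each oxygen level, and the SLC-0111 libraries of both oxygen levels came to lie close together. The difference was 1.29 ± 0.14 (adjusted p 1.29e-05). Of the 8 protein-coding opposite-sign genes with the largest smaller effect at 5 CPM or more in the highest group, FHDC1, a formin, had effects of 0.57 in hypoxia and -0.42 in normoxia. The other 5 besides EPB41L3 and CPB2 fell in hypoxia and rose in normoxia: AQP1, TNFSF10, the translation elongation factor EEF1A2 (-0.50 and 0.54), the ubiquitin ligase TRIM9 (-0.43 and 0.55) and the membrane protein TMEM92 (-0.40 and 0.62). Libraries overlapped for EEF1A2 in normoxia and for TRIM9 and TMEM92 in hypoxia.

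**Figure D3:**
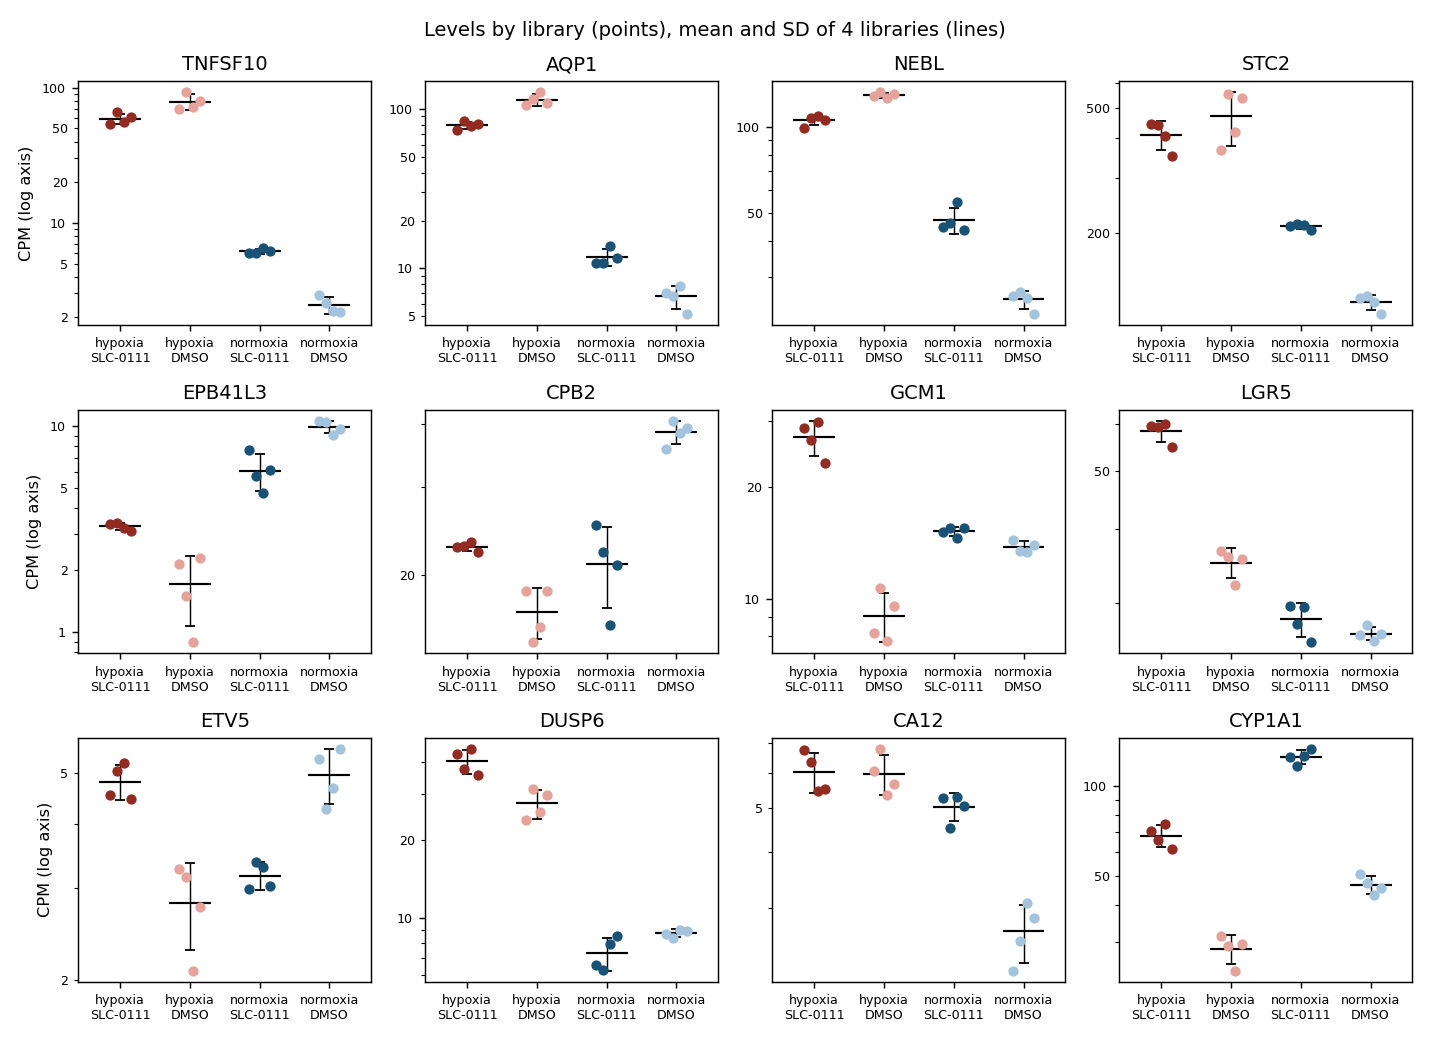
CPM after TMM scaling on a log axis for 12 genes, with each panel giving, from left to right, hypoxia SLC-0111, hypoxia DMSO, normoxia SLC-0111 and normoxia DMSO. Points are libraries (4 per group), long lines means and error bars SD. TNFSF10, AQP1 and NEBL lie below their DMSO libraries in hypoxia and above them in normoxia, EPB41L3, CPB2 and ETV5 the other way round, and CYP1A1 lies above DMSO at both oxygen levels.

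Several of the largest positive differences were rises in hypoxia with no call in normoxia. GCM1, a transcription factor of placental trophoblast (chr6:53126964-53148829, minus strand), had 28.7, 26.7, 29.8 and 23.1 CPM in hypoxia SLC-0111 and 8.15, 10.7, 7.74 and 9.61 CPM in hypoxia DMSO libraries. Normoxia levels were 15.2, 15.5, 14.6 and 15.5 CPM with SLC-0111 and 14.4, 13.5, 13.4 and 14.0 CPM with DMSO. The gap in hypoxia was wide and that in normoxia narrow, and the difference was 1.38 ± 0.12 (adjusted p 4.32e-07). NR1D1, a repressor in the circadian clock, had effects of 1.25 in hypoxia and 0.08 in normoxia, WNT8A, a WNT ligand, of 0.98 and 0.01, and ISX, an intestinal homeobox factor, of 0.72 and -0.25. For SLC25A25, a mitochondrial ATP-magnesium/phosphate carrier (0.89 and -0.35), the libraries in hypoxia overlapped, and its call was lost under 16 of the alternatives tried, that of NR1D1 under 9. GPR83, a G protein-coupled receptor, and CATSPERG, a subunit of a sperm calcium channel, were instead lowered in normoxia (-0.88 and -0.68) with no call in hypoxia (0.17 and 0.34).

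Among the largest negative differences, a set fell in hypoxia and was not called in normoxia. NREP (effects -1.07 and 0.57), the lipid-binding protein PLEKHA2 (-0.66 and 0.71), the glycosyltransferase B3GNT4 (-1.38 and -0.07), RNF223 (-1.41 and -0.19) and SMIM38 (-0.73 and 0.47) were of this kind. In normoxia, NREP, PLEKHA2 and SMIM38 were at most 1.15 CPM in every library. B3GNT4 averaged 0.956 CPM there with SLC-0111 and 1.036 CPM with DMSO, and RNF223 1.225 and 1.395 CPM. The normoxia effects of all these genes rest on low counts. Another set rose in normoxia and was not called in hypoxia: ANXA1, a phospholipid-binding annexin (0.04 in hypoxia and 1.31 in normoxia), the peptide transporter SLC15A1 (0.22 and 1.37), FGD5, an exchange factor of CDC42 (-0.18 and 1.11), and RNF224 (-0.41 and 0.90). FGD5 had 0.38 to 0.86 CPM in the normoxia DMSO libraries, from 10 to 28 counts, and its call was lost under 6 alternatives. SLC15A1 had the smallest SE of these, with a difference of -1.15 ± 0.14 (adjusted p 3.36e-05).

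Of the HIF-induced genes, 37 were tested, 11 were called lower and 0 higher for the difference. That is 29.7% of the list, against 3.13% of all tested genes called lower and 2.87% called higher. The median log2 difference over the 37 was -0.34, against -0.02 over all tested genes. In the single contrasts, 13 fell and 1 rose in hypoxia, with a median of -0.24. In normoxia 1 fell and 7 rose, with a median of 0.06. Over all tested genes, 9.14% rose and 7.11% fell in hypoxia, and 12.4% rose and 11.2% fell in normoxia. These shares, and those for the difference, are the background for every list below. Without CA9 and STC1, which were near 0 counts in normoxia, the 35 others had a median difference of -0.32 and the same 11 calls. The count was 23 without hypoxia DMSO replicates 1 and 3, 19 without hypoxia DMSO replicate 1 alone, and 8 without normoxia DMSO replicate 2.

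STC2, a secreted glycoprotein hormone that is also induced through ATF4, had 444.7, 439.7, 406.5 and 351.3 CPM in hypoxia SLC-0111 and 368.0, 553.1, 417.2 and 538.3 CPM in hypoxia DMSO libraries. It had 210.2, 213.8, 211.5 and 204.1 CPM in normoxia SLC-0111 and 124.6, 126.2, 120.5 and 110.9 CPM in normoxia DMSO libraries. The libraries overlapped in hypoxia and were apart in normoxia, and the difference was -0.998 ± 0.150 (adjusted p 0.000954). In hypoxia, DMSO replicate 2 and the unnumbered DMSO library (553.1 and 538.3 CPM) lay above every SLC-0111 library. DMSO replicates 1 and 3 (368.0 and 417.2 CPM) did not. PPFIA4, a liprin scaffold protein, fell in hypoxia (-0.99) and not in normoxia (-0.06, adjusted p 0.736), with a difference of -0.93 ± 0.14. LOX, which crosslinks collagen, had effects of -0.57 and 0.20, and INSIG2, which retains the sterol sensor in the endoplasmic reticulum, of -0.75 and 0.06. The call of INSIG2 was lost under 16 alternatives. Its hypoxia DMSO libraries split like those of STC2, at 98.0 and 102.1 CPM against 57.2 and 71.2 CPM in replicates 1 and 3. So did those of LOX, at 88.0 and 79.65 CPM against 58.6 and 66.4 CPM. Those of AQP1 did not, at 115.1 and 108.9 CPM against 106.7 and 128.0 CPM. The cause of this split was not tested.

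The other HIF-induced genes called were PFKFB4, which sets the level of fructose 2,6-bisphosphate, BNIP3, a mitophagy receptor, the adenylate kinase AK4, FAM162A, the collagen prolyl hydroxylases P4HA2 and P4HA1, and the oxidase ERO1A. Their differences ran from -0.70 in PFKFB4 to -0.27 in P4HA1. AK4 combined a small effect with high precision: it fell by 0.21 in hypoxia and rose by 0.25 in normoxia (difference -0.47 ± 0.06, adjusted p 3.36e-05). P4HA1 differed from the others in that it rose at both oxygen levels, by 0.35 in hypoxia and 0.62 in normoxia. VEGFA, the vascular growth factor, had effects of 0.30 and 0.50 and a difference of -0.20 ± 0.25, which was not called.

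**Figure D4:**
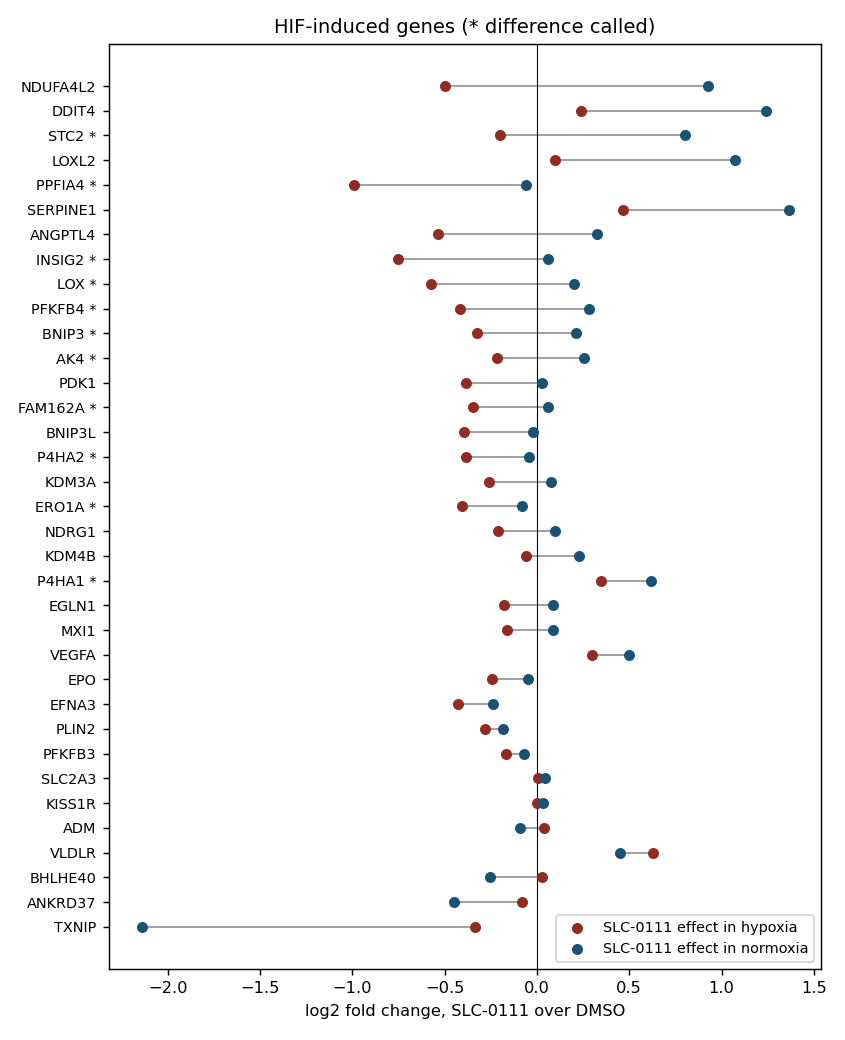
Log2 fold change of SLC-0111 over DMSO (horizontal axis) for 35 HIF-induced genes (rows, ordered by the difference), red points for hypoxia and blue points for normoxia, asterisks for a called difference. CA9 and STC1, near 0 counts in normoxia, are left out. In all 11 genes with an asterisk the red point lies to the left of the blue one.

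Glycolysis and glucose uptake genes gave 4 calls of 25, all lower, with a median difference of -0.07. In the single contrasts, 11 fell and 2 rose in hypoxia (median -0.17), and 9 fell and 3 rose in normoxia (median -0.07). Some lists share members. PFKFB4 is also among the HIF-induced genes above, as are LOX of the collagen-modifying enzymes and STC2 of the ATF4 targets. PGK1, an ATP-forming kinase of glycolysis, fell at both oxygen levels, by 0.55 in hypoxia and 0.22 in normoxia (difference -0.33 ± 0.07). PFKP, the platelet form of phosphofructokinase, rose in normoxia (0.59) with an effect of 0.06 in hypoxia, and its call for the difference was lost with the replicate block (adjusted p 0.0901). ALDOC, an aldolase at most 1.70 CPM in any library, had -1.47 and 0.37.

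Feedback and target genes of the ERK kinase cascade had a median difference of 0.45 over 18 tested members. This was the largest of the lists of nuclear genes in which at least 4 members were called. Some members, such as DUSP6 and SPRY4, dampen growth factor signals, and others, such as ETV4 and ETV5, are transcription factors. Of the 18 members, 6 were called higher and 0 lower. In hypoxia 7 rose and 1 fell (median 0.22), and in normoxia 2 rose and 6 fell (median -0.25). The count of 6 ran from 5 to 9 when single libraries were left out.

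ETV5, a transcription factor induced by ERK, had 4.54, 5.04, 5.22 and 4.45 CPM in hypoxia SLC-0111 and 3.27, 3.16, 2.08 and 2.76 CPM in hypoxia DMSO libraries. In normoxia it had 2.99, 3.38, 3.30 and 3.04 CPM with SLC-0111 and 5.33, 4.26, 4.68 and 5.56 CPM with DMSO. Its libraries did not overlap at either oxygen level, higher with SLC-0111 in hypoxia (0.67) and lower in normoxia (-0.64), opposite-sign effects at group means under 5 CPM. The difference was 1.31 ± 0.17 (adjusted p 6.77e-05). DUSP6, a phosphatase of ERK, had 42.9, 37.6, 44.9 and 35.6 CPM in hypoxia SLC-0111 and 23.9, 31.6, 25.6 and 29.8 CPM in hypoxia DMSO libraries. With 6.57, 6.29, 7.92 and 8.52 CPM in normoxia SLC-0111 and 8.69, 8.37, 9.02 and 8.93 CPM in normoxia DMSO libraries, its effects were 0.51 in hypoxia and -0.26 in normoxia, where it was not called, and the difference was 0.77 ± 0.14 (adjusted p 0.00230). SPRY4, a Sprouty inhibitor of receptor kinase signals, rose at both oxygen levels, by 1.501 in hypoxia and 0.499 in normoxia. ETV4, which is related to ETV5, fell in normoxia (-0.46) and had 0.21 in hypoxia.

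Targets and regulators of WNT and beta-catenin, the pathway most often mutated in hepatoblastoma, gave 7 calls higher and 2 lower of 24 tested, with a median difference of 0.27. LGR5, an R-spondin receptor and stem cell marker (chr12:71439770-71586310, plus strand), had 59.5, 59.3, 60.0 and 54.9 CPM in hypoxia SLC-0111 and 36.7, 35.8, 32.2 and 35.5 CPM in hypoxia DMSO libraries. In normoxia there were 29.6, 27.7, 29.5 and 25.8 CPM with SLC-0111 and 26.5, 27.6, 25.9 and 26.7 CPM with DMSO. A gap separated the libraries in hypoxia and they overlapped in normoxia, and the difference was 0.63 ± 0.08 (adjusted p 3.36e-05). NOTUM, a lipase that inactivates WNT proteins, instead fell in normoxia (-0.48) with 0.28 in hypoxia. DKK4, a secreted WNT inhibitor at under 2 CPM, had a difference of 1.15 ± 0.34 that was lost under 19 alternatives. The receptor FZD7 went the other way, with effects of -0.33 in hypoxia and 0.24 in normoxia and a difference of -0.57 ± 0.13.

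More cell cycle genes were called lower with SLC-0111 in normoxia than in hypoxia. Of 30 mitosis and G2/M genes, 25 fell in normoxia (median -0.28) and 3 in hypoxia (median -0.06). For the difference 8 were called higher (26.7%) and 0 lower, with a median of 0.21. Over all tested genes, 11.2% fell in normoxia, 7.11% fell in hypoxia and 2.87% were called higher for the difference. The 3 of 30 that fell in hypoxia are thus near the general share. The count of 8 was 3 with library size alone as the scaling, 3 without hypoxia SLC-0111 replicate 2, 17 without hypoxia DMSO replicate 1 and 21 without hypoxia DMSO replicates 1 and 3. PLK1, a mitotic kinase, averaged 69.6 CPM in hypoxia SLC-0111, 76.0 CPM in hypoxia DMSO, 63.4 CPM in normoxia SLC-0111 and 89.8 CPM in normoxia DMSO libraries. Its difference was 0.38 ± 0.08 (adjusted p 0.00690). The spindle checkpoint kinase TTK, the kinesin KIF23 and the centromeric histone CENPA had differences of 0.30, 0.30 and 0.33, and these calls were lost under 8, 6 and 11 alternatives, library size alone among them in each.

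DNA replication and S phase genes had 27 of 36 members lowered in normoxia and 6 in hypoxia. For the difference 2 were called, both higher, with a median of 0.14. That is 5.56% of the list, against 2.87% of all tested genes called higher and 5.99% called in either direction. The difference was positive in 34 of 36 members, while its median over all tested genes was -0.02. Ribosome biogenesis factors had 23 of 30 lowered in normoxia and 7 in hypoxia, with 4 called higher for the difference (13.3%). RRP12 and BYSL, small-subunit maturation factors, had differences of 0.51 and 0.38, MYBBP1A, a nucleolar MYB-binding protein, 0.36, and UTP15, a small-subunit processome member, 0.31. The calls of BYSL and UTP15 were lost under 18 and 15 alternatives. The count of 4 was 12 without hypoxia DMSO replicate 1 and 1 without hypoxia SLC-0111 replicate 3.

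Genes of the G1 phase and p53 targets gave 4 calls higher and 1 lower of 24. CDKN1A, the CDK inhibitor p21, averaged 98.6 CPM in hypoxia SLC-0111 and 79.3 CPM in hypoxia DMSO, and 100.0 CPM in normoxia SLC-0111 and 107.4 CPM in normoxia DMSO. Its difference was 0.42 ± 0.07 (adjusted p 0.000962). In hypoxia every SLC-0111 library lay above every DMSO library (log2 0.32). In normoxia the SLC-0111 libraries lay below by a narrow gap, at most 104.1 CPM against at least 105.1 CPM. The normoxia effect (-0.10) was not called (adjusted p 0.139). GADD45A, a growth arrest gene of the DNA damage response, rose in hypoxia (0.64) with -0.20 in normoxia and a difference of 0.84 ± 0.18. CCND3, cyclin D3, had 0.39 and was lost under 11 alternatives. CDKN2B, the CDK inhibitor p15 at no more than 1.66 CPM, rose in normoxia (0.97) with -0.07 in hypoxia, and its call was lost under 12. The list count of 4 ran from 2 to 6 when single libraries were left out, and the count of 1 from 0 to 2.

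ATF4 targets, the amino acid arm of the integrated stress response, rose at both oxygen levels: 29 of 42 in hypoxia (median 0.45) and 30 of 42 in normoxia (median 0.44), with none lowered. For the difference 8 were called lower and 0 higher, and the median was -0.08. SLC7A11, the cystine transporter, averaged 35.6 CPM in hypoxia SLC-0111 and 17.0 CPM in hypoxia DMSO, and 61.2 CPM in normoxia SLC-0111 and 19.6 CPM in normoxia DMSO. It thus rose by 1.02 in hypoxia and 1.65 in normoxia, with a difference of -0.63 ± 0.10 (adjusted p 0.000485). ALDH1L2, a mitochondrial folate enzyme (0.55 and 1.36), and PCK2, the mitochondrial PEP carboxykinase (0.94 and 1.39), likewise rose at both levels and by more in normoxia. The list count was 4 without hypoxia SLC-0111 replicate 2 and 5 in a fit without a filter on low counts.

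A minority of chaperone genes was called, all of them higher for the difference. Of 28 endoplasmic reticulum chaperone and unfolded protein response genes, 4 were called higher for the difference and 0 lower (median 0.16). In normoxia 12 fell and 0 rose, and in hypoxia 3 rose and 0 fell. HYOU1, a reticulum HSP70-type chaperone, rose by 0.22 in hypoxia and fell by 0.24 in normoxia, with a difference of 0.46 ± 0.08 (adjusted p 0.00104). The disulfide isomerase PDIA4 (difference 0.46), the reticulum HSP90 paralog HSP90B1 (0.33) and the cochaperone DNAJB11 (0.31, lost under 12 alternatives) fell in normoxia. Heat shock proteins gave 6 calls higher of 22 and 0 lower, with a median of 0.14: 12 fell and 1 rose in normoxia, and 2 fell and 2 rose in hypoxia. HSPH1, an HSP110 exchange factor, averaged 84.8 CPM in hypoxia SLC-0111 and 83.9 CPM in hypoxia DMSO, against 159.1 CPM in normoxia SLC-0111 and 201.8 CPM in normoxia DMSO (difference 0.35 ± 0.07). AHSA1, an HSP90 activator (0.37), HSPE1, the mitochondrial HSP10 (0.40), and HSPB1, a small heat shock protein (0.33), followed, and the calls of HSPE1 and HSPB1 were lost under 14 and 13 alternatives. With library size alone as the scaling 3 heat shock proteins were called, without hypoxia DMSO replicate 1 the reticulum list had 11 calls, and without hypoxia SLC-0111 replicate 1 the heat shock list had 3.

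Hepatocyte secretory and fetal liver genes gave 5 calls higher and 4 lower of 35. In the single contrasts, 23 of 35 rose and 0 fell in hypoxia (median 0.31), and 16 rose and 3 fell in normoxia (median 0.19). ALB, which encodes albumin, averaged 38.3 CPM in hypoxia SLC-0111 and 25.2 CPM in hypoxia DMSO, and 74.4 CPM in normoxia SLC-0111 and 76.8 CPM in normoxia DMSO. It rose by 0.57 in hypoxia and had -0.05 in normoxia, with a difference of 0.62 ± 0.12 (adjusted p 0.00373). The apolipoproteins APOA2 (0.52 and -0.11) and APOH (0.72 and 0.09) had the same form, and CP, the copper oxidase ceruloplasmin at no more than 2.21 CPM, fell in normoxia (-0.77; call of the difference lost under 9 alternatives). The fifth gene called higher was HP, haptoglobin (0.27 and -0.18). The 4 called lower had larger effects in normoxia: the complement proteins C3 (0.84 in hypoxia and 1.27 in normoxia) and C5 (0.18 and 0.54), the clotting inhibitor antithrombin SERPINC1 (0.89 and 1.41), and vitronectin VTN (0.15 and 0.46). C3 and SERPINC1 rose at both oxygen levels, and their differences were -0.43 ± 0.07 (adjusted p 0.000754) and -0.52 ± 0.10 (adjusted p 0.00338). The count of 5 was 3 without hypoxia SLC-0111 replicate 2 and 10 without a filter on low counts.

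Fatty acid and glycerolipid genes gave 3 calls higher and 2 lower of 25. GPAM, the mitochondrial enzyme that starts glycerolipid synthesis, had 50.6, 47.5, 51.2 and 53.3 CPM in hypoxia SLC-0111 and 36.3, 27.4, 33.4 and 31.1 CPM in hypoxia DMSO libraries. In normoxia it had 124.2, 129.4, 100.1 and 119.6 CPM with SLC-0111 and 123.9, 130.6, 131.8 and 133.1 CPM with DMSO. It was raised in hypoxia without overlap, and its libraries overlapped in normoxia (difference 0.81 ± 0.11, adjusted p 8.78e-05). SREBF1, a regulator of lipid synthesis, fell in normoxia (-0.58) with -0.11 in hypoxia. AGPAT2, the next acyltransferase after GPAM, rose in normoxia (0.47) with 0.01 in hypoxia, and LPIN1, a phosphatidate phosphatase, fell in hypoxia (-0.29) with -0.02 in normoxia, its call being lost under 12 alternatives. With single libraries left out, the counts ran from 2 to 5 and from 1 to 5.

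Most matrix genes were not called for the difference, and the calls were lower more often than higher. In the single contrasts, 10 of 23 collagens and matrix genes rose and 4 fell in hypoxia (median 0.14). In normoxia 13 rose and 3 fell (median 0.19). Of 21 collagen-modifying enzymes, 4 rose and 6 fell in hypoxia, and 5 rose and 2 fell in normoxia. The median difference was -0.08 over collagens and matrix genes and -0.10 over collagen-modifying enzymes. Of 23 collagens and matrix genes, 4 were called lower and 1 higher for the difference, and of 21 collagen-modifying enzymes 5 lower and 2 higher, beside which the fibroblast marker sums stand as given above, lower with SLC-0111 at both oxygen levels. The fibroblast-defining DCN, LUM and COL3A1 among those markers were near 0 in every group. COL1A2, a collagen I chain, fell by 1.03 in hypoxia with -0.31 in normoxia, and COL6A3, a collagen VI chain, fell in hypoxia (-0.33) and rose in normoxia (0.44). FN1, fibronectin, rose at both levels, by 0.25 in hypoxia and 0.56 in normoxia. THBS1, thrombospondin, was the exception, with averages of 52.5 CPM in hypoxia SLC-0111 and 50.8 CPM in hypoxia DMSO, and of 131.8 CPM in normoxia SLC-0111 and 212.3 CPM in normoxia DMSO (difference 0.70 ± 0.09, adjusted p 4.28e-05). Of the enzymes, LOXL1, a collagen and elastin crosslinker, rose at both levels (0.55 and 1.29), LOXL3, its paralog, fell in hypoxia (-1.02) with -0.38 in normoxia and lost its call under 14 alternatives, and P3H4, a member of a collagen hydroxylase complex, rose in hypoxia (0.27) with -0.12 in normoxia. The calls of P3H4 and FN1 were lost under 7 and 6 alternatives. The 5 lower calls of the enzymes were 2 with limma-voom and 3 to 5 with single libraries left out, and the 2 higher calls were 0 to 3.

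In the YAP and actin stress list, 2 genes were called higher and 2 lower of 29. AXL, a receptor tyrosine kinase, fell in hypoxia (-0.39) and rose in normoxia (0.45), with a difference of -0.83 ± 0.14, and AJUBA, a LIM scaffold protein, rose in normoxia (0.30) with -0.07 in hypoxia. The calls of calponin CNN2 (0.30) and actin ACTB (0.27) were lost under 14 and 19 alternatives, and both were lost with library size alone as the scaling. With single libraries left out, the list gave 0 to 4 higher and 2 to 4 lower calls. Lysosome and autophagy genes gave 7 calls higher and 1 lower of 32 (median 0.17). The protease CTSL averaged 201.7 CPM in hypoxia SLC-0111 and 130.8 CPM in hypoxia DMSO, and 181.1 CPM in normoxia SLC-0111 and 163.3 CPM in normoxia DMSO (difference 0.48 ± 0.10, adjusted p 0.00375). The protease CTSA rose in hypoxia (0.25) with -0.08 in normoxia. ATP6V0D1, a proton pump subunit, rose in hypoxia (0.22) and fell in normoxia (-0.18), and TFEB, the transcription factor of lysosome genes, fell in normoxia (-0.30) with 0.32 in hypoxia. The count of 7 was 4 with library size alone, 4 without hypoxia SLC-0111 replicate 2, and 11 without hypoxia SLC-0111 replicate 4.

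**Figure D5:**
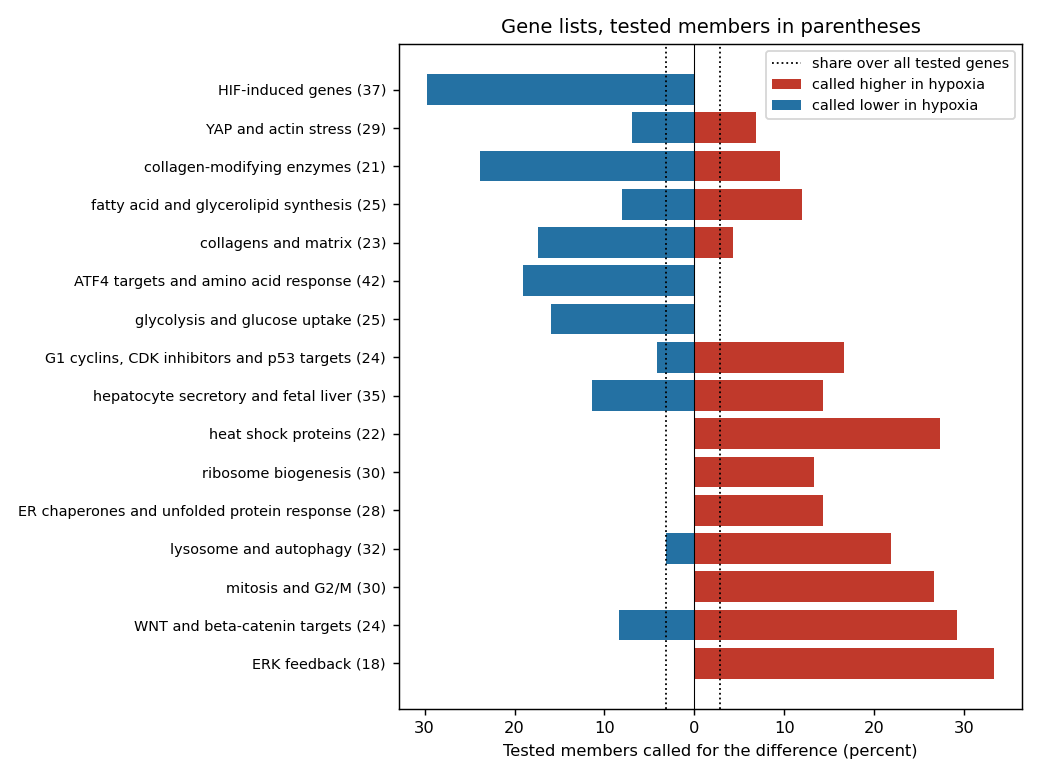
Percent of the tested members of each gene list called for the difference, to the right in red for a higher and to the left in blue for a lower effect in hypoxia, with the number tested in parentheses and rows ordered by median difference. Dotted lines mark the shares over all tested genes, 2.87% and 3.13%. HIF-induced genes have 11 of 37 called lower, and the ERK feedback list (feedback and target genes) has 6 of 18 called higher.

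Over all lists other than cell type markers, 130 of 931 distinct tested members were called, against 1102 of all 18385 tested genes (5.99%). The lists were chosen with earlier results of these data known, so these counts are a description. Some lists held no called gene: nuclear respiratory chain subunits (36 tested, median difference 0.11), cytosolic ribosomal proteins (35 tested, median 0.01), AHR targets and xenobiotic receptors (16 tested, median 0.04) and replication-dependent histones (12 tested, median -0.24). Of 15 mitochondrially encoded genes 2 were called higher, with a median of 0.50, and the mitochondrial share of counts was 6.41 to 8.91% in hypoxia SLC-0111 and 5.73 to 7.06% in hypoxia DMSO libraries, and 8.71 to 15.3% in normoxia SLC-0111 and 8.48 to 9.33% in normoxia DMSO libraries. The normoxia SLC-0111 maximum was replicate 4, and its part in that median was not tested.

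Among called long noncoding RNAs with an approved symbol and at least 5 CPM in the highest group, PURPL, a p53-regulated transcript, had the largest absolute difference, -0.84 ± 0.20 (adjusted p 0.0225). Its levels were 16.4, 15.8, 15.5 and 25.3 CPM in hypoxia SLC-0111 and 21.96, 18.98, 25.3 and 21.7 CPM in hypoxia DMSO libraries. In normoxia they were 33.6, 38.9, 47.0 and 37.6 CPM with SLC-0111 and 26.2, 23.9, 25.03 and 26.5 CPM with DMSO. Replicate 4 of hypoxia SLC-0111 was high beside the other 3, and the groups overlapped in hypoxia but not in normoxia. The call was lost under 6 alternatives, among them leaving out hypoxia DMSO replicate 1. LY6E-DT fell in hypoxia (-0.53) with 0.19 in normoxia, whereas MIR22HG, the host transcript of a microRNA, and PWAR6 rose in normoxia (0.39 and 0.38) with -0.15 and -0.11 in hypoxia. The calls of MIR22HG, LY6E-DT and PWAR6 were lost under 17, 6 and 7 alternatives.

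A difference that misses the threshold does not show like effects, so these were sought by their interval. In 66 genes SLC-0111 was called in the same direction at both oxygen levels with at least 0.8 on the log2 scale, and in 7 of them the 95% interval of the difference lay within -0.5 to 0.5. All 7 rose. CYP1A1, a xenobiotic-metabolising enzyme induced through the aryl hydrocarbon receptor (chr15:74719542-74725610, minus strand), had 70.9, 66.0, 74.6 and 61.4 CPM in hypoxia SLC-0111 and 31.5, 29.3, 24.1 and 29.5 CPM in hypoxia DMSO libraries. In normoxia its levels were 125.0, 116.8, 125.9 and 133.0 CPM with SLC-0111 and 50.8, 47.2, 43.2 and 45.8 CPM with DMSO. The rise was clear of the DMSO libraries in both, 1.21 in hypoxia and 1.42 in normoxia, and the interval of the difference was -0.41 to -0.01. That interval lies below 0, toward a smaller rise in hypoxia, though the difference was not called (adjusted p 0.208). MT2A, a metal-binding metallothionein, rose by 1.06 and 1.02 (interval -0.18 to 0.28), with the reservation that reads of near-identical metallothioneins may be split. CYP19A1, the aromatase, rose by 0.81 and 0.80 (interval -0.28 to 0.29). The transcription factor AKNA (-0.33 to 0.07), the protease CTSE (-0.36 to 0.18), the semaphorin SEMA3G (-0.38 to 0.41) and the activin subunit INHBE (-0.33 to 0.45) made up the rest. Within -0.3 to 0.3 lay 2 of the 7, MT2A and CYP19A1.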

How the data were processed

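Total RNA of 16 HUH6 libraries was sequenced. Per the submitters' processing notes, reads were aligned with HISAT2 (HISAT) to GRCh38, counted with HTSeq, checked with MultiQC 1.10.1 and tested with edgeR 3.4.0. The deposited values are raw read counts per gene. The counting strand is not given in the sources used here, so overlapping genes, and near-identical copies such as those of metallothioneins, HSPE1, HSPB1, ACTB, PGK1 and EEF1A2, may share reads. The names of 2 columns fit their group but conflict with the labels' replicate numbers. These libraries, 1 of hypoxia DMSO and 1 of normoxia SLC-0111, were left unnumbered and come last in the lists of hypoxia DMSO and normoxia SLC-0111 values.

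Counts were tested with edgeR 4.0.16 (filterByExpr, TMM, robust quasi-likelihood fit, 1 mean per group, 12 residual degrees of freedom) in R 4.3.3. Genes were called at a Benjamini-Hochberg adjusted p under 0.05 over all 18385 tested genes. The SE is the absolute log2 value over the root of the F statistic. A fit on simulated data was checked first. Replicate pairs spread beyond counting error (chi-square per degree of freedom 2.27 to 71.5), so no library was a copy. A count of 0 allows up to 3 counts, 0.0609 to 0.910 CPM, which covers counting error only.

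The contrast, the lists (46, with 1130 of 1131 entries found) and the rule for named genes were chosen with earlier results of these data known. Named were CA9 and CA12, the 12 largest called differences per direction among protein-coding genes with at least 5 CPM, 8 opposite-sign genes, up to 8 with like effects, 4 long noncoding RNAs, and up to 4 called members per list (at least 1 CPM) for lists with at least 4 called members. The other HIF-induced genes, VEGFA among them, and HP, C3, C5, SERPINC1 and VTN were named after their values were seen. Symbols are current ones. Alternatives were RLE scaling, library size alone, 2 other filters, DESeq2 1.42.0, limma 3.58.1 voom with and without library weights, a fit that is not robust, the protein-coding share as a covariate, a replicate block and leaving out libraries.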

Additional observations from a re-analysis of the deposited data

Results flagged for a closer look

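Tests of the difference between oxygen levels drew attention to 1102 genes in all. Of those named, the log2 difference (SLC-0111 effect in hypoxia minus that in normoxia) was 1.53 for EPB41L3, 1.38 for GCM1, 1.29 for CPB2, 1.24 for SLC25A25, 1.18 for NR1D1, 1.05 for GPR83, 1.02 for CATSPERG, 1.00 for SPRY4, 0.99 for FHDC1, 0.97 for WNT8A, 0.97 for ISX and 0.84 for GADD45A. On the other side it was -1.77 for TNFSF10, -1.64 for NREP, -1.37 for PLEKHA2, -1.35 for AQP1, -1.31 for RNF224, -1.31 for B3GNT4, -1.29 for FGD5, -1.27 for ANXA1, -1.22 for NEBL, -1.22 for RNF223, -1.20 for SMIM38 and -1.15 for SLC15A1.

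For the remaining opposite-sign genes and CA12 the difference was -0.95 for CA12, -1.04 for EEF1A2, -0.98 for TRIM9 and -1.02 for TMEM92. The noncoding RNAs gave -0.84 for PURPL, -0.72 for LY6E-DT, -0.55 for MIR22HG and -0.49 for PWAR6.

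Of the list members not yet given, the same difference follows. Among HIF-induced genes it was -0.998 for STC2, -0.93 for PPFIA4, -0.81 for INSIG2 and -0.78 for LOX. The glycolysis genes had -1.83 for ALDOC, -0.70 for PFKFB4, -0.53 for PFKP and -0.33 for PGK1. Values for the ATF4 targets were -0.81 for ALDH1L2, -0.63 for SLC7A11 and -0.45 for PCK2. In reticulum chaperones the test gave 0.46 for HYOU1, 0.46 for PDIA4, 0.33 for HSP90B1 and 0.31 for DNAJB11. Among heat shock proteins it was 0.40 for HSPE1, 0.37 for AHSA1, 0.35 for HSPH1 and 0.33 for HSPB1. The lipid synthesis genes had 0.81 for GPAM, 0.46 for SREBF1, -0.46 for AGPAT2 and -0.28 for LPIN1. Values for the mitosis genes were 0.38 for PLK1, 0.33 for CENPA, 0.30 for TTK and 0.30 for KIF23. In G1 and p53 genes the test gave -1.04 for CDKN2B, 0.42 for CDKN1A and 0.39 for CCND3. Among ribosome biogenesis factors it was 0.51 for RRP12, 0.38 for BYSL, 0.36 for MYBBP1A and 0.31 for UTP15. The WNT genes had 1.15 for DKK4, 0.75 for NOTUM, 0.63 for LGR5 and -0.57 for FZD7. Values for the hepatocyte secretory genes were 1.06 for CP, 0.64 for APOA2, 0.63 for APOH and 0.62 for ALB. In matrix genes the test gave -0.77 for COL6A3, -0.72 for COL1A2, 0.70 for THBS1 and -0.31 for FN1. Among collagen-modifying enzymes it was -0.75 for LOXL1, -0.64 for LOXL3 and 0.39 for P3H4. The ERK feedback and target genes had 1.31 for ETV5, 0.77 for DUSP6 and 0.67 for ETV4. Values for the YAP and actin genes were -0.83 for AXL, -0.37 for AJUBA, 0.30 for CNN2 and 0.27 for ACTB. In lysosome genes the test gave 0.62 for TFEB, 0.48 for CTSL, 0.39 for ATP6V0D1 and 0.33 for CTSA.

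In 18 of 400 groups of 4 libraries of the named genes, 1 library stood apart from the other 3, and chance alone gives about 1 in 20. Such libraries were hypoxia SLC-0111 replicate 4 for PURPL at 25.3 CPM (others 15.5 to 16.4) and LGR5 at 54.9 CPM (others 59.3 to 60); hypoxia DMSO replicate 2 for HSPH1 at 92.6 CPM (others 80.4 to 81.7). Further ones were normoxia SLC-0111 replicate 3 for CATSPERG at 13.2 CPM (others 11.4 to 11.5) and CENPA at 14.7 CPM (others 16.5 to 16.8); normoxia SLC-0111 replicate 4 for WNT8A at 8.68 CPM (others 13.5 to 14.2) and HSP90B1 at 1195 CPM (others 1319 to 1337). Further ones were normoxia DMSO replicate 1 for RNF224 at 2.17 CPM (others 1.38 to 1.5), CYP19A1 at 3.75 CPM (others 3.3 to 3.31), PLK1 at 94.8 CPM (others 87.8 to 88.4), APOH at 14.3 CPM (others 15.5 to 15.6), P3H4 at 56.9 CPM (others 52.8 to 53.4), CNN2 at 188 CPM (others 168 to 170.0) and ACTB at 2994 CPM (others 2651 to 2706); normoxia DMSO replicate 2 for GPR83 at 18.3 CPM (others 19.3 to 19.4), SPRY4 at 2.53 CPM (others 1.89 to 1.99) and COL6A3 at 5.83 CPM (others 5.07 to 5.2); normoxia DMSO replicate 3 for CCND3 at 28.3 CPM (others 30.3 to 30.5).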

How the results depend on the processing

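The number of genes called for the difference depended most on how libraries were weighted. It was 1102 in the reported fit, 3572 with limma-voom library weights (1908 higher, 1664 lower), 2953 without hypoxia DMSO replicates 1 and 3 (1716 and 1237), and 2726 without normoxia SLC-0111 replicate 4 as well (1456 and 1270). Leaving out 1 library at a time gave 691 to 2040 genes, 307 to 1121 higher and 355 to 919 lower, the lowest totals without normoxia DMSO replicate 2 and the highest without hypoxia DMSO replicate 1. Genes called higher numbered 350 with library size alone and 814 without a filter on low counts. Opposite-sign genes numbered 295 with library weights, 55 with the share of protein-coding counts as covariate, 232 and 258 in those fits without 2 and 3 libraries, and 43 to 127 with single libraries left out. Called list members numbered 331, 302 and 292 in the weighted fit and the fits without 2 and 3 libraries, and 89 to 211 with single libraries left out. Like effects numbered 12 without a filter and 2 with the stricter bound of 0.3, and 5 to 10 with single libraries left out. The causes were not tested.

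The labels do not say that replicate numbers pair the libraries. Over 18 same-number pairs, the correlation of deviations from the group means was -0.03 to 0.35 (median 0.08, against -0.01 over 55 other pairs), so not every pair was over 0.1. In 8 of 14 numbered libraries the best correlation was with the own number, a hint of pairing from the data and not from the design. With the replicate block the 14 numbered libraries gave 1881 genes (1092 higher), and without the block, an alternative chosen after seeing the data, 624 (294 higher, 330 lower, 50 opposite signs). The single effects in hypoxia and normoxia stayed within 1.5 times their reported counts under every alternative run. Of 2870 values of 99 named genes under alternatives, 2550 kept direction and call or, in genes with like effects, moved by less than their SE, and 317 kept their direction but lost the call. The other 3, of CTSE and SEMA3G among the genes with like effects, moved by more than their SE. No called difference of a named gene changed direction. Calls not remarked on above were lost under 3 alternatives for MYBBP1A and TFEB, 2 for LOX and SPRY4, and 1 for APOH, GADD45A and PLEKHA2. Depth limits genes near 0 counts in normoxia, and hypoxia DMSO replicate 3 limits genes under 1 CPM.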
